A study of Mus musculus with 24 samples.

Results

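The 34 cell cycle and proliferation genes described here were chosen by name: every row of the count table whose symbol was on the list and whose total over the 24 libraries was above 0. All 34 listed symbols met this, among 41128 genes in the table, of which 31774 had a count in any library. By role they fall into 12 replication genes (Mcm2, Mcm3, Mcm4, Mcm5, Mcm6, Mcm7, Pcna, Rrm2, Tyms, Tk1, Ccne1 and Ccne2), 21 genes of late S phase, G2 and mitosis, called mitotic genes below, and the G1 cyclin Ccnd1. Their expression was followed in mouse aorta by genotype and treatment.

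Total RNA was sequenced from 24 aortas of male and female mice aged 5 months, from the line B6,129S6-Ppp3cbtm1Jmk/J. The mice were wildtype (WT) or knockout (KO) for Ppp3cb, whose protein is a catalytic subunit of the calcium-activated phosphatase calcineurin. They were either controls or carried osmotic minipumps that released angiotensin II (AngII), a pressor peptide, at 500 ng/kg/min for 4 weeks. Genotype, treatment and sex made 8 groups of 3 libraries, so a genotype and treatment held 6 libraries. The labels do not say whether controls carried a pump, which part of Ppp3cb the allele lacks, or whether libraries with different replicate numbers were processed separately, so p-values measure the spread between these libraries. Whole aorta was used, and in bulk tissue fewer dividing cells and less RNA per dividing cell cannot be told apart.

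Cell cycle genes are switched on in waves. Growth signals raise D-type cyclins such as Ccnd1, which with their kinases release E2F factors; E2F then turns on the genes that license and copy DNA, among them the Mcm helicase subunits and the clamp Pcna. Genes that build the spindle and separate chromosomes follow later under the DREAM and MuvB complexes, which bind promoters through a short element called CHR, usually with CCAAT boxes bound by NF-Y. Most smooth muscle cells of the adult aorta are quiescent, and both vessel wall cells and tissue macrophages can divide when stimulated.

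Library totals were 1523328 to 6352365 counts. Ppp3cb was at 41.9 ± 10.8 CPM (counts relative to library size, scaled by TMM factors) over the 12 WT libraries, against 21.3 ± 6.11 CPM over the 12 KO libraries (SD). Myh11 and Acta2, which define smooth muscle, were abundant in every library, with medians of 7399.5 and 4387 CPM, while Tagln and Cnn1 were listed at 0 throughout and were not analysed here. Genes of the X and Y chromosomes were likewise listed at 0, so the labelled sexes were not checked. KO control females 1 and 3 had the lowest library totals, 1523328 and 1699541 counts. Receptor genes of the olfactory and vomeronasal families took 1992 and 1890 CPM of protein-coding counts in these libraries, 1001 in KO control female 2 and 110 to 1073 in the other 21. Values that rest on this group are therefore also given without its replicates 1 and 3 where that ends a call or moves it by over 1.5 times.

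The start regions of these genes are shown first, because replication and mitotic genes differ there in the letters that define the E2F and CHR waves. The sequences are RefSeq windows on GRCm38.p6 running from 250 bases before to 50 bases after a gene's start, written 5′ to 3′ on the gene's strand. Windows were found for 27 of the 34 genes. Capitals mark matches to 3 motifs searched on both strands: CHR (TTTGAA or TTCGAA), the CCAAT box (CCAAT) and an E2F site (TTTGGCGC or TTTCCCGC). A match on the opposite strand is printed as its reverse complement, and no letter was shared between motifs in the windows shown. The first 3 windows belong to mitotic genes and the last to a replication gene. They are Mki67 (chr7:135716330-135716629, minus strand), Cenpf (chr1:189688037-189688336, minus strand), Top2a (chr11:99024140-99024439, minus strand) and Mcm6 (chr1:128359656-128359955, minus strand). Mki67, Cenpf and Mcm6 are shown because they had the smallest p-values after AngII in WT among genes with a window, and Top2a, chosen after its letters were seen, because it held the most CHR matches.
Mki67: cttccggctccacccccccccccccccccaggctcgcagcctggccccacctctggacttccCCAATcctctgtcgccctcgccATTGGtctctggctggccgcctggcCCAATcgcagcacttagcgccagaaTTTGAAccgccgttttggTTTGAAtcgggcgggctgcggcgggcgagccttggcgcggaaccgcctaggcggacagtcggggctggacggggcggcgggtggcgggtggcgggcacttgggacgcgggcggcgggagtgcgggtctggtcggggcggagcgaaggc
Cenpf: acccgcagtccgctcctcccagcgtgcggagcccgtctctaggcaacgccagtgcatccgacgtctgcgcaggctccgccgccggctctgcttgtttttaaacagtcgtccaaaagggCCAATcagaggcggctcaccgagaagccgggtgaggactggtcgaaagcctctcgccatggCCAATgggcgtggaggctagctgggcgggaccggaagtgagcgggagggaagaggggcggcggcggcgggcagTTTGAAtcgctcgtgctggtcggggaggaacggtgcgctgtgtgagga
Top2a: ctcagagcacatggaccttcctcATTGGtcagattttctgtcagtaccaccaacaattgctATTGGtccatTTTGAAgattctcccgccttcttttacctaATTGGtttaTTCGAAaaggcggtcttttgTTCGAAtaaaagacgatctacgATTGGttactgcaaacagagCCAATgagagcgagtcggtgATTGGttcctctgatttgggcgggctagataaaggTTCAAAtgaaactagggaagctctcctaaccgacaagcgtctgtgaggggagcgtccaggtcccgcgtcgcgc
Mcm6: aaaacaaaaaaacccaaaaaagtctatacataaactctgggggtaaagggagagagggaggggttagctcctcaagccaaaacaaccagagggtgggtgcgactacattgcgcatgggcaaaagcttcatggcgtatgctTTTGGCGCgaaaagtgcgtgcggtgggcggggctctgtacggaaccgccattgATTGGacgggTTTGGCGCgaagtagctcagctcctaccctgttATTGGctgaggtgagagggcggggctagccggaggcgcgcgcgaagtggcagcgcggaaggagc
The Mki67 window held 2 CHR and 3 CCAAT matches, Cenpf 1 and 2, Top2a 4 and 6, and none of these held an E2F match. Mcm6 held 2 E2F and 2 CCAAT matches and no CHR match.

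Over the mitotic genes with a window, 13 of 17 (76.5%) held a CHR match, against 2 of 10 replication genes (20.0%) and 21.7% of the 27025 genes with a window. All 13 also held a CCAAT box, a pairing found in 8.61% of all genes. CCAAT boxes alone were in 15 of 17 mitotic and 7 of 10 replication genes, and in 41.1% of all genes. An E2F match was found in 0 of 17 mitotic and 4 of 10 replication genes (Mcm3, Mcm5, Mcm6 and Mcm7), and in 1.80% of all genes. Of the mitotic genes with a window, Birc5, Ccnb1, Cenpe and Nusap1 held no CHR match. Ccna2, Aurkb, Tpx2, Kif20a, Ccnd1, Ccne2 and Mcm4 have no window in the table used. These are matches of letters only, and binding was not measured.

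Cell cycle transcripts were scarce in all aortas. The 34 genes together had 15068 counts over the 24 libraries. A replication gene had a median of 20 counts in a library and a mitotic gene a median of 5. Per kilobase of exon, the replication genes Mcm6 (4.21 CPM per kb averaged over all libraries), Pcna (3.78), Mcm4 (3.23) and Tk1 (2.95) and the cyclin Ccnd1 (3.71) were highest. Mki67 at 1.73 and Prc1 at 1.15 CPM per kb led the mitotic genes, and Cdk1, the kinase that drives entry into mitosis, was near the bottom at 0.160. Counts were above 0 in every library for 8 of 12 replication genes but for only 2 of 21 mitotic genes, Mki67 and Prc1. A count of 0 allows 0.496 to 1.91 CPM, taking 3 counts as the floor in the deepest and shallowest library, so levels below that are not resolved.

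Of the 34 genes, 28 passed the filter on low counts and were tested among 16316 genes with edgeR's quasi-likelihood test. The other 6, Rrm2, Cdc20, Ccnb1, Ube2c, Cdk1 and Bub1, are given by level only. Because a gene can pass the filter through the one group where it is high, counts over tested genes are descriptions and stand beside the same figure for all genes. A gene was called at a Benjamini-Hochberg adjusted p under 0.05.

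The first comparison asked what AngII does in WT aorta. Mki67, which encodes the Ki-67 protein that coats chromosomes in dividing cells, was the single member called, and it rose. Mki67 (chromosome 7, 135689784 to 135716361, minus strand, mm10) stood in WT controls at 6.96, 9.13 and 2.43 CPM in females and 0.296, 5.66 and 8.38 CPM in males. After AngII it stood at 36.5, 34.6 and 49.2 CPM in females and 23.0, 7.95 and 29.9 CPM in males. AngII libraries were high except male replicate 2, which lay inside the control range, so the groups overlapped through that library alone. The means were 5.48 ± 3.47 and 30.2 ± 13.9 CPM (SD, n = 6 each). The log2 change was 2.36 ± 0.51 (SE; edgeR, adjusted p = 0.0353).

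That 1 call among 28 tested members compares with 0.208% of all genes called in this comparison. An unadjusted edgeR p under 0.05 was found for 4 of 28 members and 6.71% of all genes. These were Mki67, Cenpf and Mcm6, which were higher after AngII, and Aurkb, which was lower. The Mki67 call is sensitive to single libraries, since Mki67 was called in 15 of 24 fits that each left out 1 library. The call was lost when any 1 of these was absent: WT control females 1, 2 and 3, WT control males 1 and 2, WT AngII females 2 and 3, and WT AngII males 1 and 3. Over all 24 fits the change stayed between 2.10 and 2.68, and the edgeR adjusted p between 0.0215 and 0.184. The change was 2.68 ± 0.72 in females and 2.05 ± 0.72 in males, with edgeR adjusted p of 0.480 and 0.573 when each sex was fitted alone. It was 0.0614 with a stricter filter of 50 counts in 3 libraries. The difference between the sexes, male minus female, was -0.63 ± 1.00 (edgeR, unadjusted p = 0.531, adjusted p = 1), and no member was called for it, nor was any gene (0.0% of all genes; 515 genes, 3.16%, and no member had an unadjusted p under 0.05). In sign, 3 of 16 tested mitotic genes had a sex difference above 0, with a median of -1.08 log2, against 46.7% of all genes and a median of -0.05. Replication genes had 5 of 11 above 0 and a median of -0.12 log2.

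**Figure D1:**
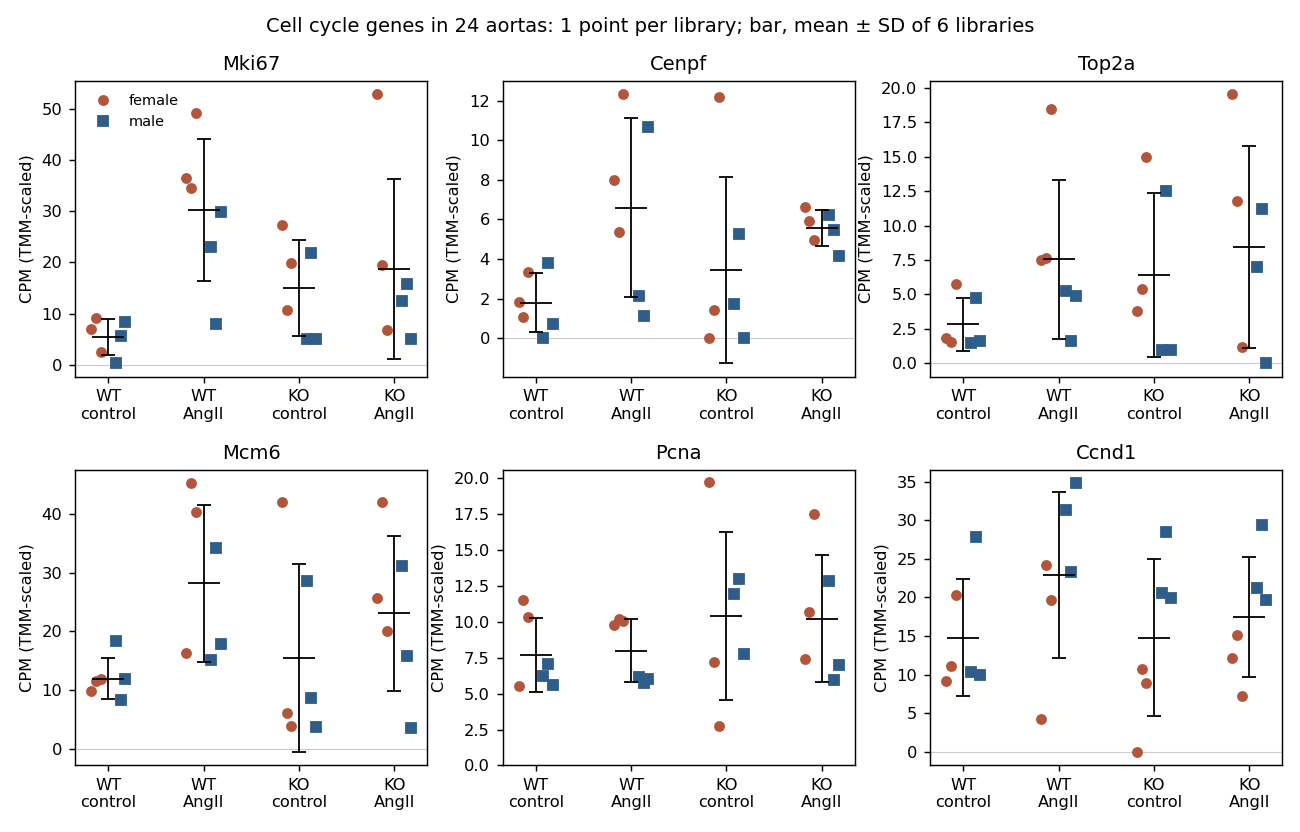
Level of 6 cell cycle genes (y axis, CPM scaled by TMM factors) in each library by genotype and treatment (x axis). Circles are females, squares are males, and bars are the mean ± SD of 6 libraries. Mki67 is between 0.296 and 9.13 CPM in WT controls and above that range in 5 of the 6 WT AngII libraries, whereas Pcna and Ccnd1 overlap between all groups.

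Most mitotic genes had fitted changes above 0 in WT mice after AngII, but none besides Mki67 was called. Of 16 tested, Mki67 included, 12 had a change above 0 and the median was 1.05 log2, against 48.8% of all genes above 0 and a median of -0.01. Leaving out 1 library, the mitotic median ran from 0.87 to 1.25, and over the 11 other alternatives from 0.36 to 1.73. Cenpf, a kinetochore protein, had a median of 1.46 CPM (0 to 3.77) in WT controls and 6.67 CPM (1.10 to 12.3) after AngII. Its change was 1.81 ± 0.81 (edgeR, adjusted p = 0.679). Both groups spread widely: AngII males 1 and 2 lay within the control range, and the other 4 AngII libraries lay above it. Without 1 library the Cenpf value ran from 1.06 to 2.76.

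Several spindle and chromosome genes had similar values with wide errors. Tpx2, which activates Aurora A on the spindle, had a median of 3.17 CPM (0 to 3.96) in controls and 4.80 CPM (0.822 to 18.5) after AngII, a change of 1.18 ± 0.76. Prc1, which bundles the central spindle, went from a median of 5.93 CPM (4.13 to 8.79) to 8.27 CPM (6.58 to 14.0), a change of 0.55 ± 0.37. The AngII range of Tpx2 took in the control values apart from the library at 0, and the Prc1 ranges overlapped between 6.58 and 8.79 CPM. Top2a, the topoisomerase that untangles chromosomes, and Ccna2, cyclin A2, are added here after their values were seen. Top2a was at 2.83 ± 1.91 and 7.56 ± 5.77 CPM (SD, n = 6), a change of 1.22 ± 0.74, and Ccna2 at 1.63 ± 1.41 and 5.50 ± 3.72 CPM, a change of 1.80 ± 0.92. The edgeR adjusted p was at least 0.778 for each of these 4 genes.

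The Aurora and Polo kinases had fitted changes below 0 in WT, and survivin, which partners Aurora B, had one above 0. Plk1, the Polo kinase, had a median of 1.46 CPM (0 to 3.06) in controls and 0.953 CPM (0.254 to 3.16) after AngII, a change of -0.31 ± 0.97. Aurka, Aurora A, had medians of 1.20 CPM (0 to 2.59) and 0.829 CPM (0.274 to 2.50), a change of -0.12 ± 1.04. Birc5, which encodes survivin, had medians of 0 CPM (0 to 0.733) and 0.297 CPM (0 to 3.20), a change of 2.19 ± 1.27. For Aurkb, Aurora B itself, the edgeR change was -3.19, the lowest of the 16 tested mitotic genes, with an unadjusted p under 0.05. WT controls had 12 Aurkb counts in all and WT AngII libraries 1 count. The ratio of AngII to control was 0.0839, with a 95% exact binomial interval of 0.00196 to 0.567 that covers counting error only. These 4 genes rest on few reads, all their ranges overlapped between groups, and edgeR called none of them.

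The remaining 6 tested mitotic genes had small counts and errors of 0.79 to 1.29. Hmmr, a spindle protein, and Bub1b, a checkpoint kinase, had changes of 1.81 and 1.40, and the motors Cenpe, Kif11 and Kif20a of 0.92, 0.79 and 0.73. Nusap1, which bundles spindle microtubules, had a change of -0.52. None was called, and the lowest edgeR adjusted p of the 6 was 0.918.

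The untested mitotic genes are given by their levels in WT. Cdc20, the activator of the anaphase-promoting complex, was at 0 to 2.17 CPM in controls and 1.02 to 2.50 CPM after AngII. Ube2c, its partner ubiquitin-conjugating enzyme, had 3 counts over the 6 control libraries and 29 over the 6 AngII libraries. Cdk1 had 7 and 22 counts, Ccnb1 21 and 15, and Bub1 13 in each group. Of these control counts, WT control male 2 alone held 20 for Ccnb1 and 11 for Bub1. All 5 genes were at 0 in at least 1 WT library.

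Replication genes showed no common direction after AngII in WT mice. Of 11 tested, 4 were higher and 7 lower, the median was -0.02 log2, and edgeR called none. Mcm6, a subunit of the replicative helicase (chromosome 1, 128331590 to 128359664, minus strand, mm10), had the largest change. It was at 9.89, 11.5, 11.9, 18.3, 8.25 and 11.9 CPM in WT controls and at 16.3, 45.2, 40.4, 15.0, 34.3 and 17.8 CPM after AngII, females first. The AngII libraries were all above the control median, and the groups overlapped only through control male 1 at 18.3 CPM. The change was 1.21 ± 0.48 (edgeR, adjusted p = 0.576). Among the alternatives tried it passed only when no count filter was used (1.22, edgeR adjusted p = 0.0314), and that fit called 134 genes in place of 34.

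The other helicase subunits did not follow Mcm6. Mcm7 averaged 10.8 ± 1.73 CPM (SD, n = 6) in WT controls and 8.05 ± 1.39 CPM with AngII, a change of -0.43 ± 0.36. Mcm3 was at 7.31 ± 3.63 and 7.52 ± 3.88 CPM, and Mcm4 at 9.90 ± 1.94 and 12.9 ± 3.04 CPM. Mcm2 was at 3.82 ± 2.18 and 3.86 ± 1.97 CPM, and Mcm5 at 3.11 ± 0.390 and 1.93 ± 1.44 CPM. The subunits form a ring that unwinds DNA ahead of the polymerases. Within WT their changes ran from -0.69 for Mcm5 to 1.21 for Mcm6, and none but Mcm6 had an unadjusted edgeR p under 0.05.

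The changes of Pcna and Tk1 in WT were smaller than their standard errors. Pcna, the sliding clamp that holds the polymerase on DNA, averaged 7.70 ± 2.59 CPM in WT controls and 7.99 ± 2.21 CPM with AngII, a change of 0.03 ± 0.39. Tk1, which salvages thymidine for DNA, was at 16.8 ± 6.55 and 15.9 ± 4.42 CPM, a change of -0.02 ± 0.34. Tyms, which makes thymidylate, was at 5.70 ± 2.08 and 4.01 ± 2.17 CPM, a change of -0.50 ± 0.48. The S-phase cyclins Ccne1 and Ccne2 stood at 1.19 ± 1.52 against 0.364 ± 0.365 CPM and at 3.37 ± 1.86 against 2.84 ± 0.876 CPM. Rrm2, the ribonucleotide reductase subunit made in S phase, had 21 and 29 counts and was not tested.

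Ccnd1, the cyclin D1 that links growth signals to the cycle (chromosome 7, 144929931 to 144939925, minus strand, mm10), was not called either. In WT controls it ranged from 9.16 to 27.8 CPM with a median of 10.7, and after AngII from 4.25 to 34.8 CPM with a median of 23.7. The lowest library of all 12 was an AngII female and the highest an AngII male. The change was 0.56 ± 0.40 (edgeR, adjusted p = 0.918).

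**Figure D2:**
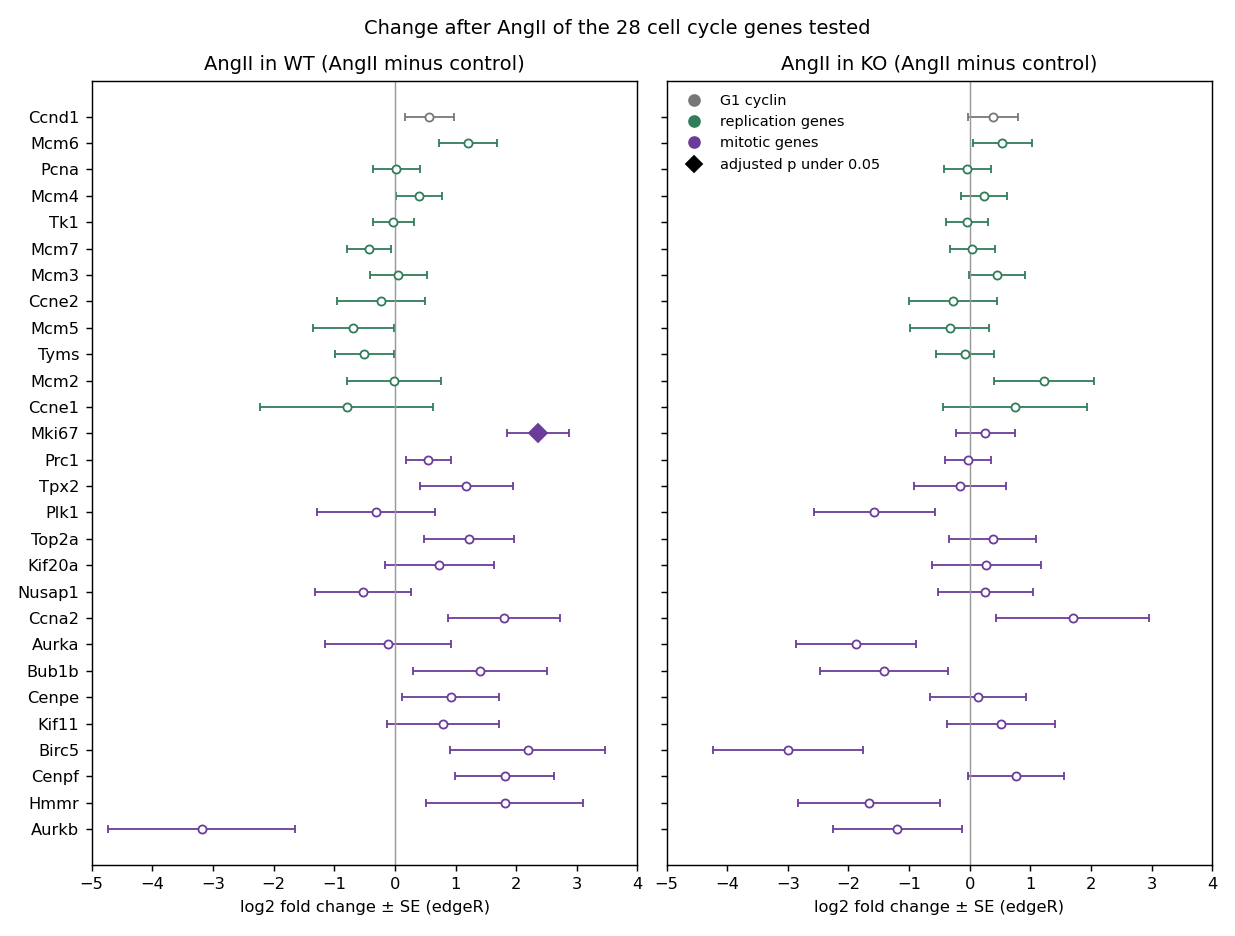
Change after AngII (x axis, log2 fold change with its SE from edgeR) of the 28 tested genes in WT and in KO mice, with the G1 cyclin, the replication genes and the mitotic genes from top to bottom. Mki67 in WT, at 2.36 ± 0.51, is the only filled diamond, which marks an adjusted p under 0.05; in KO the mitotic genes lie on both sides of 0, with a median of 0.06.

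In KO mice AngII was compared with KO controls. No gene of the 16316 was called (0.0% of all genes; 1258 had an unadjusted p under 0.05, 17 were called by DESeq2, 85 without a count filter and 100 without KO control female replicate 2), and so no member was. Of the 28 tested members 1 had an unadjusted p under 0.05, against 7.71% of all genes, and no alternative called any. Mki67 stood in KO controls at 27.4, 10.8 and 20.0 CPM in females and 5.13, 21.9 and 5.10 CPM in males. In KO AngII mice it stood at 52.8, 19.6 and 6.70 CPM in females and 12.5, 15.9 and 5.02 CPM in males. The 2 groups lay across each other, with 1 AngII female far above the rest. The change was 0.26 ± 0.48 (edgeR, adjusted p = 0.951).

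Mitotic genes were evenly divided in KO mice, with 8 of 16 above 0 and a median of 0.06 log2, against 51.4% of all genes. Leaving out 1 library, that median ran from -0.27 to 0.36, and over the 11 other alternatives from -0.17 to 0.67. Birc5 had a median of 1.75 CPM (0 to 7.21) in KO controls and 0.146 CPM (0 to 3.43) after AngII, a change of -2.99 ± 1.23 (edgeR, adjusted p = 0.583). Plk1 had a fitted change of -1.57 ± 0.99. Aurka had a fitted change of -1.88 ± 1.00, a mean over the sexes of log2 changes, although its mean level was 1.44 CPM in KO controls and 2.00 CPM after AngII. The 3 KO AngII males were at 0 for Aurka and the 3 females at 1.17 to 7.38 CPM. Cenpf averaged 3.43 ± 4.70 CPM (SD, n = 6) in KO controls and 5.55 ± 0.897 CPM with AngII, a change of 0.77 ± 0.79. The 6 KO AngII libraries held Cenpf at 4.15 to 6.60 CPM, while the controls ran from 0 to 12.2 CPM. Of 11 replication genes 6 were higher, with a median of 0.04 log2. Mcm2 changed by 1.23 ± 0.83, Mcm6 by 0.54 ± 0.48 and Pcna by -0.04 ± 0.39, and Ccnd1 by 0.39 ± 0.42.

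KO and WT mice were then compared without AngII, to ask whether loss of Ppp3cb alters cell cycle transcripts at baseline. None of the 28 tested members was called by edgeR, DESeq2 or limma-voom, and 3 had an unadjusted edgeR p under 0.05, against 0.221% of all genes called and 9.73% under that p. Of 16 mitotic genes 14 were higher in KO controls, with a median of 0.66 log2, against 49.5% of all genes and a median of -0.01. Mki67 averaged 5.48 ± 3.47 CPM in WT against 15.0 ± 9.37 CPM in KO controls (SD, n = 6), a difference of 1.37 ± 0.51 (edgeR, adjusted p = 0.337). The 3 KO females and KO male 2 lay above every WT control, and KO males 1 and 3 lay among them. Birc5 had 4 counts over the WT controls and 35 over the KO controls, a difference of 4.01 ± 1.34 (edgeR, adjusted p = 0.252). By the fit Aurkb and Ccna2 were the 2 mitotic genes lower in KO controls, Aurkb by -0.08 ± 1.04 with means of 0.555 CPM in WT and 0.671 CPM in KO. Ccna2 had 0 counts in all 3 KO control females, where 0 allows up to 1.08 to 1.91 CPM.

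The females of this comparison include the libraries that stood apart. With females alone the Mki67 difference was 1.61 ± 0.73, with males alone 1.13 ± 0.72, and without KO control female replicates 1 and 3 it was 0.95 ± 0.60. The mitotic median without those 2 libraries was 0.24 log2. Leaving out 1 library, it ran from 0.15 (KO control male 2 absent) to 0.96 (WT control male 2 absent), with 0.36 when KO control female 1 was absent. The Mki67 difference ran from 0.84 (KO control male 2 absent) to 1.67 (WT control male 3 absent). Mki67 passed in 1 alternative, the fit without a count filter (1.33, edgeR adjusted p = 0.0224). Replication genes had 7 of 11 higher in KO controls and a median of 0.11 log2. Pcna averaged 10.4 ± 5.86 CPM in KO controls, against 7.70 ± 2.59 in WT, and Mcm6 averaged 15.5 ± 16.0 CPM in KO controls, against 12.0 ± 3.43 in WT.

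Under AngII, KO and WT mice had no member called by edgeR, DESeq2 or limma-voom, against 0.355% of all genes called by edgeR. An unadjusted edgeR p under 0.05 was reached by 2 of 28 members and by 7.75% of all genes. Mki67 averaged 30.2 ± 13.9 CPM in WT against 18.7 ± 17.6 CPM in KO mice, a difference of -0.73 ± 0.47 (edgeR, adjusted p = 0.859). Ccna2 had the smallest p of the members here. It ran from 2.25 to 12.1 CPM with a median of 4.55 in WT and from 0 to 2.57 CPM with a median of 0.874 in KO mice, and only the lowest WT library and the highest KO library crossed. Its difference was -2.38 ± 0.95 (edgeR, adjusted p = 0.502). Of 16 mitotic genes 5 were higher in KO, with a median of -0.29 log2, against 50.9% of all genes, and of 11 replication genes 8 were higher, with a median of 0.27 log2.

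Whether the response to AngII differs by genotype was tested directly as an interaction, KO response minus WT response. No gene of all tested was called (0.0% of genes; 657 had an unadjusted p under 0.05, 12 were called without a count filter and 2 without KO control female replicate 2). Of the members 2 had an unadjusted p under 0.05, Mki67 and Birc5, against 4.03% of all genes. For Mki67 the interaction was -2.10 ± 0.70 (edgeR, unadjusted p = 0.00496, adjusted p = 1), so the call in WT and its absence in KO are not shown to differ after adjustment. It was called only without a count filter, at -2.10 with an edgeR adjusted p of 0.0287. In sign, 14 of 16 mitotic genes had a smaller response in KO, with a median interaction of -0.94 log2, against 52.7% of all genes above 0. Leaving out 1 library, that median ran from -1.28 to -0.56, the latter without KO control male 2. Over the 10 other alternatives it ran from -1.48 to -0.47. Replication genes had 6 of 11 above 0 and a median of 0.36 log2, which ran from -0.06 without KO AngII male 1 to 0.46. Of 14 macrophage markers 13 had an interaction below 0, with a median of -1.30 log2 and 7 at an unadjusted edgeR p under 0.05. Their part in the mitotic interaction was not tested. The 3 comparisons share libraries, since a high KO control enters both the baseline difference and the response in KO.

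Averaged over both genotypes, the AngII change called 0.656% of all genes and no member, with 5 of 28 members and 10.4% of all genes at an unadjusted edgeR p under 0.05. Mki67 changed by 1.31 ± 0.35 (edgeR, adjusted p = 0.0793), Cenpf by 1.29 ± 0.57, Mcm6 by 0.87 ± 0.34 and Ccnd1 by 0.47 ± 0.29. Mki67 was called without KO control male replicate 2 (1.58, edgeR adjusted p = 0.0262) or KO AngII female replicate 3 (1.42, edgeR adjusted p = 0.0344). Mcm6 was called without KO control female replicate 1 (1.30, edgeR adjusted p = 0.0441). DESeq2 on all 24 libraries called Mki67 (1.27, adjusted p = 0.0453).

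Levels were also summed over each set of genes. The 21 mitotic genes together held 35.7 ± 11.3 CPM in WT controls, 89.7 ± 43.7 in WT AngII, 72.1 ± 44.2 in KO controls and 71.5 ± 44.0 in KO AngII libraries (SD, n = 6). Without Mki67 the sums were 30.3 ± 10.1, 59.5 ± 30.2, 57.0 ± 35.4 and 52.8 ± 27.3 CPM. KO control females 1 and 3 had the highest mitotic sums of their group, 142 and 98.7 CPM (115 and 78.7 without Mki67). Without them, KO control female 2 stood at 57.9 CPM and males 1, 2 and 3 at 26.9, 78.3 and 28.7 CPM. Without Mki67 these libraries stood at 47.1, 21.7, 56.4 and 23.6 CPM. WT controls were the least variable, at 17.2 to 50.9 CPM, and 5 of the 6 WT AngII libraries lay above that range. The 12 replication genes held 82.5 ± 8.66, 94.8 ± 16.5, 85.6 ± 19.2 and 101 ± 30.7 CPM in the same order, and all 4 ranges overlapped. Females had the higher mitotic sums in 3 of the 4 groups: 121 ± 33.9 against 58.5 ± 26.8 CPM in WT AngII, 99.5 ± 42.0 against 44.6 ± 29.2 in KO controls and 96.4 ± 51.5 against 46.7 ± 18.1 in KO AngII (SD, n = 3). In WT controls they were 35.6 ± 4.68 and 35.9 ± 17.2 CPM. These sums were not tested.

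**Figure D3:**
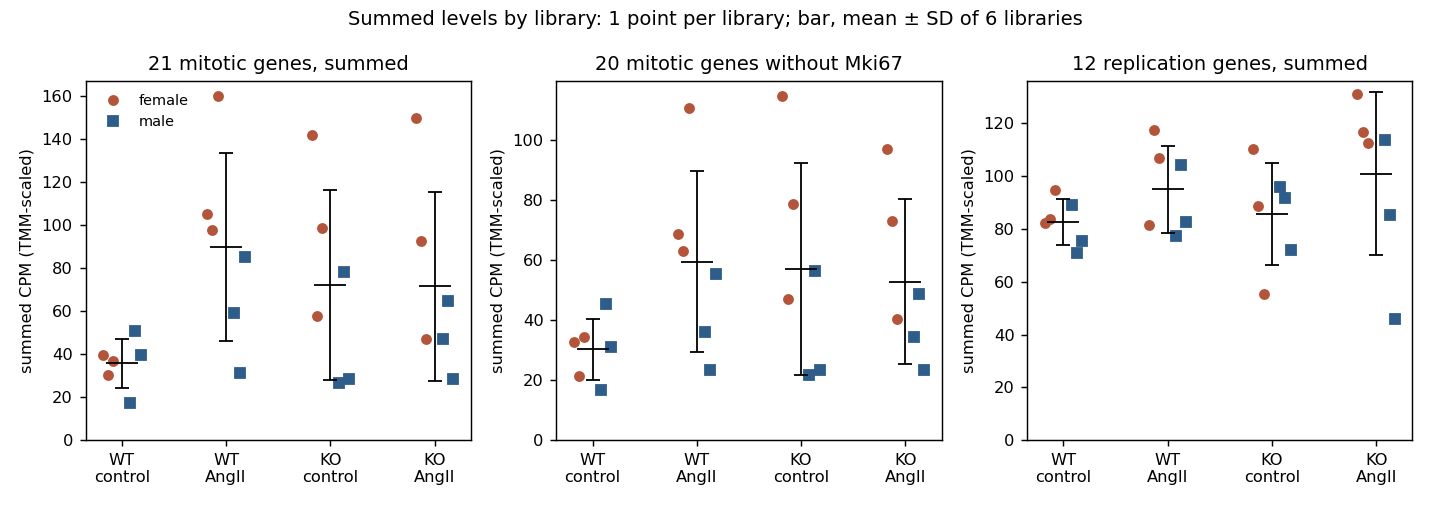
Summed level (y axis, CPM scaled by TMM factors) of the 21 mitotic genes, the same without Mki67, and the 12 replication genes in each library by genotype and treatment (x axis), with bars for the mean ± SD of 6 libraries. The mitotic sum runs from 17.2 to 50.9 CPM in WT controls and from 31.5 to 160 CPM in WT AngII libraries, while the replication sums of the 4 groups overlap.

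Other genes of the pathway were taken from lists made by role, and edgeR called none of them in any of these comparisons. Of 58 further mitotic genes 37 were tested: 25 were higher after AngII in WT with a median of 0.32 log2, 15 after AngII in KO with a median of -0.18, and 29 in KO against WT controls with a median of 0.68. Of all genes, 48.8%, 51.4% and 49.5% were higher in these comparisons. Those of the 37 with an unadjusted edgeR p under 0.05 numbered 2, 3 and 7, against 6.71%, 7.71% and 9.73% of all genes. Nuf2, a kinetochore subunit, changed by 3.01 ± 1.33 after AngII in WT, from 6 to 28 counts over 6 libraries. The other gene under that p in WT, Cdca5, went the other way, by -3.37 ± 1.51. Under AngII, Cdca5 was higher in KO than in WT mice by 5.35 ± 1.58 (edgeR, adjusted p = 0.217). Ncaph, a condensin subunit, and Cdca2, a chromosome-bound phosphatase regulator, were higher in KO controls by 3.35 ± 1.18 and 3.34 ± 1.10 (edgeR, adjusted p = 0.285 and 0.237). Of 36 further replication genes 29 were tested, 14 were higher after AngII in WT, and the median was -0.01 log2. Orc1, an origin recognition subunit, changed by -1.05 ± 0.46 there.

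All 16 tested genes of cell cycle entry and E2F had fitted changes above 0 after AngII in WT, against 48.8% of all genes. The median was 0.40 log2 and the smallest change 0.0033. Of the 16, 1 had an unadjusted edgeR p under 0.05, against 6.71% of all genes. In KO, 8 of 16 were higher, with a median of 0.02, against 51.4% of all genes. E2f7 and E2f8, repressive E2F factors that are themselves induced in S phase, changed by 2.00 ± 0.98 and 2.68 ± 1.37 in WT, and Cdk2 by 1.08 ± 0.57, none of them called. E2f7 also had the smallest p of this list in KO against WT controls, at 3.20 ± 0.99 (edgeR, adjusted p = 0.210). Among 18 tested inhibitors, Cdkn1a, which encodes p21, averaged 13.5 ± 4.64 CPM (SD, n = 6) in WT controls and 26.0 ± 6.85 CPM with AngII. Its change was 0.95 ± 0.30 (edgeR, adjusted p = 0.317), and in KO mice it was at 14.0 ± 5.05 and 17.2 ± 5.43 CPM. Gas1, a growth arrest protein, was lower in KO than in WT controls by -0.73 ± 0.24 log2 (edgeR, adjusted p = 0.247).

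Replication-dependent histone genes, made in bulk only in S phase, are near-identical copies whose reads cannot be assigned with certainty, so the family is given as a sum. The 67 listed genes held 354 ± 163 CPM in WT controls, 412 ± 56.0 in WT AngII, 345 ± 107 in KO controls and 402 ± 163 in KO AngII libraries (SD, n = 6), and the ranges overlapped. Of 45 tested, 32 were higher after AngII in WT and 35 in KO, against 48.8% and 51.4% of all genes. The medians were 0.46 and 0.49 log2, and edgeR called none.

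Markers of other cell types were summed in the same libraries. The 14 macrophage markers summed to 122 ± 16.3 CPM in WT controls (98.5 to 146), 201 ± 40.3 in WT AngII (149 to 268), 289 ± 242 in KO controls (100 to 760) and 230 ± 119 in KO AngII (133 to 391). The 760 CPM belonged to KO control male 2 alone, and the other KO controls held 100 to 304 CPM. By the fit 13 of 14 were higher after AngII in WT (median 0.69 log2) and 2 of 14 after AngII in KO (median -0.66). In KO against WT controls 14 of 14 were higher (median 1.43). Of all genes, 48.8%, 51.4% and 49.5% were higher in these comparisons. None of the markers was at 0 in all libraries and none was called. The 14 lymphocyte markers summed to 8.37 ± 3.29, 8.57 ± 4.71, 22.7 ± 19.7 and 16.6 ± 11.9 CPM in the same order, and Cd3d, Cd3e and Cd3g were listed at 0 and not analysed here. The 11 markers of bone marrow precursors and red cells found in the table summed to 5.94 ± 4.09, 6.35 ± 4.55, 10.5 ± 7.85 and 13.2 ± 16.5 CPM in the same order. The highest library was KO AngII male 2 at 46.3 CPM. The 11 endothelial markers summed to 1082 ± 555, 738 ± 247, 956 ± 290 and 788 ± 172 CPM in the same order. WT control male 2 alone held 2145 CPM, and the other WT controls held 533 to 1067 CPM. Of 10 endothelial markers tested, 8 were lower after AngII in WT, with a median of -0.66 log2, and none was called. An unadjusted edgeR p under 0.05 was found for 6 of the 10, against 6.71% of all genes. Fibroblast markers summed to 3565 ± 585, 5950 ± 1290, 3917 ± 1099 and 4820 ± 633 CPM. After AngII in WT 8 of 10 tested were higher and 2 lower, and 2 were called higher, against 0.208% of all genes called. The collagen genes Col1a1 and Col3a1 averaged 646 and 757 CPM in WT controls and 1800 and 1781 CPM in WT AngII, while Pdgfra averaged 98.3 and 89.9 CPM. Smooth muscle markers summed to 16020 ± 2493, 16999 ± 3206, 13902 ± 5754 and 15558 ± 3342 CPM. KO control females 1, 2 and 3 held 6699, 11066 and 8939 CPM of these, and KO control males 16933 to 20165 CPM. The 8 skeletal muscle markers summed to 29.3 ± 11.6 CPM in KO control females and 4.74 ± 2.65 CPM in KO control males (SD, n = 3). The 8 epithelial and mesothelial markers summed to 18.2 ± 9.66 and 6.38 ± 4.58 CPM in the same groups. The part of any of these marker sets in the mitotic values was not tested.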

How the data were processed

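The authors deposited raw counts per gene for 24 libraries, without normalization, 1 column per library. Per the submitters' processing notes, the tools were TopHat2 2.0.14, Bowtie2 2.2.5, cutadapt 1.8.1 and featureCounts 1.4.6, and the build was mm10. Settings and strandedness are not given in the sources used here. Per the labels' protocols, TRIzol extracts were DNase-treated and ribosomal RNA was depleted. Each column was matched to its library by the name given in the labels. Positions and exon lengths are those of GENCODE M21 (mm10), where 40254 of 41128 identifiers were found.

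Counts were tested with edgeR 4.0.16 (R 4.3.3, limma 3.58.1): filterByExpr (minimum count 10, minimum total count 15) kept 16316 genes, TMM factors scaled library sizes, and 1 quasi-likelihood model had a coefficient for each of the 8 groups. Contrasts averaged over sexes were tested two-sided, with Benjamini-Hochberg adjustment over all 16316 tested genes and a threshold of 0.05 for a call. SE is the change divided by the square root of F, and changes are on the log2 scale. Library totals of 1523328 to 6352365 counts limit precision for members with few counts, and intervals and floors cover counting error only, since PCR copies were not marked. No pair of libraries within a group was a copy of another: chi-square per degree of freedom was 6.66 to 97.3 over 24 pairs.

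Named members were those called in any comparison, Mki67, Ccnd1, and in the replication and the mitotic genes the 4 highest per kilobase and the 3 with the smallest p for AngII in WT and in KO, 16 in all. From the other lists any called gene was named, otherwise a few with the smallest p. The members and lists were chosen with earlier results of these data known. Alternatives were RLE factors, library sizes from protein-coding genes, other count filters, DESeq2 1.42.0, limma-voom with quality weights, a replicate block, 1 sex alone, the groups compared alone, KO control females without replicates 1 and 3, and leaving out each library.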

Additional observations from a re-analysis of the deposited data

Results flagged for a closer look

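Levels of the 16 named members were checked for a library set far from the other 5 of its genotype and treatment, by Dixon's 95% criterion on the gap over the range. Of 64 groups checked 10 held such a library, and chance gives about 1 in 20 where values are normally distributed. The levels are CPM with many low or 0 values, so that rate may not hold here. Mki67 was at 52.8 CPM in KO AngII female 1 and at 5.02 to 19.6 CPM in the other 5. Mcm6 was at 18.3 CPM in WT control male 1, the library through which its WT groups overlapped, and at 8.25 to 11.9 CPM in the others. In WT AngII females, Mcm7 was at 5.34 CPM in replicate 2, Tk1 at 7.25 CPM in replicate 1 and Mcm2 at 0 CPM in replicate 1, each below the other 5 libraries. Tpx2 was at 14.0 CPM in KO control female 1, and the others were at 0.360 to 3.88 CPM. Birc5 was at 7.21 CPM in KO control female 3 and at 3.20 CPM in WT AngII female 3. Aurkb was at 3.33 CPM in KO control female 3 and at 0.254 CPM in WT AngII female 2, where 1 count stood against 0 in the other 5 libraries. Of these 10, 3 were in KO control females, the shallowest group.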

How the results depend on the processing

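The called gene, Mki67 in WT, kept its sign in every alternative run, whereas uncalled medians near 0 crossed it: leaving out 1 library, the median of the mitotic genes in KO ran from -0.27 to 0.36 and that of the replication genes between controls from -0.06 to 0.19. Without a count filter, genes called numbered 134 for AngII in WT (34 in the fit reported), 85 for AngII in KO (0), 260 for KO against WT in controls (36), 182 under AngII (58), 12 for the interaction (0), 276 for AngII over both genotypes (107) and 9 for the sex difference (0). Members called then numbered 2 in WT, 1 between controls, 1 for the interaction and 2 over both genotypes. DESeq2 called 80, 17, 183, 152 and 215 genes for AngII in WT, AngII in KO, the controls, AngII mice and both genotypes, and 3 for the sex difference. Its members called were 1 in WT and 1 over both genotypes (0 in the fit reported). Limma-voom with quality weights called 329 genes in WT, 200 between AngII mice and 196 over both genotypes. Females alone gave 0, 133, 0 and 58 genes in WT, between controls, between AngII mice and over both genotypes, and males alone gave 0, 0, 4 and 1. Without KO control female replicates 1 and 3, the genes called were 60 in WT, 0 between controls and 63 over both genotypes. With the groups compared alone they were 1 for AngII in KO and 22 between controls, and the stricter filter of 50 counts in 3 libraries also gave 22 there. Mki67 after AngII in WT changed by 2.32 under that filter, 2.68 in females and 2.05 in males, uncalled in each, so members called in WT were 0.

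Replicate numbers did not pair libraries: same-numbered deviations correlated at a median of 0.00287 (-0.102 to 0.132), with 2 of 84 pairs over 0.1. With the replicate number as a block, Mki67 in WT changed by 2.40 (edgeR, adjusted p = 0.0545) and 0 members were called.

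Leaving out 1 library, genes called ran from 4 (WT AngII female replicate 3 absent) to 93 (female replicate 1 absent) in WT and from 0 to 100 in KO. They ran from 9 to 357 between controls, 31 to 65 between AngII mice, 0 to 2 for the interaction, 54 to 272 over both genotypes and 0 to 1 for the sex difference. The highest values in KO, between controls, for the interaction and over both genotypes came without KO control female replicate 2. Members called ran from 0 to 1 in WT and over both genotypes and stayed at 0 in the other comparisons, and Mki67 in WT ran from 2.10 to 2.68. Depth limits the mitotic genes most, with a median of 5 counts in a library.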
